A study of Mus musculus with 30 samples.

Results

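The enzymes described here build triglyceride from glycerol-3-phosphate and fatty acids, and they were followed in the quadriceps muscle of mice on a low fat or a high fat diet. The list held 7 genes, taken as named: Gpd1, Gpam, Agpat2, Agpat3, Lpin1, Dgat1 and Dgat2. A gene was included where the deposited table had an entry under its mouse Entrez gene number, and this held for 6 of the 7. The table held 16475 entries in all, not counting control probe sets. Agpat2 had no entry under its number and was not analysed here.

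All mice were males of strain C57BL/6J (spelled C56BL/6J in the sample labels), with no genetic change named, and each array held the RNA of whole quadriceps from 1 mouse. Every mouse had passed a 3-week run-in on the low fat diet, which began at 9 weeks of age. The HF day 56 group (10 mice, 20 weeks old) then ate the high fat diet for 56 days. The LF day 56 group (10 mice, 20 weeks old) stayed on the low fat diet for as long, and the LF day 0 group (10 mice, 12 weeks old) was killed at the end of the run-in. The study concerned the response of muscle to a fat-rich diet under which mice become obese and insulin resistant. Comparisons with LF day 0 join the 56 days on a diet with the difference in age, and these cannot be told apart.

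In cells that store fat, glycerol-3-phosphate, made from a glycolytic intermediate by glycerol-3-phosphate dehydrogenase, is acylated on its first carbon and then on its second to give phosphatidate. A lipin removes the phosphate to leave diacylglycerol, and a diacylglycerol acyltransferase adds the last fatty acid. Muscle fibres keep the product in small droplets beside their mitochondria, the adipocytes between the fibres hold far more of it, and phosphatidate and diacylglycerol also feed the synthesis of membrane phospholipids.

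Values are the authors' GCRMA intensities, a linear brightness per gene. Differences are on the log2 scale from 1 limma fit over the 30 arrays, with standard errors (SE) from that fit and p-values adjusted by Benjamini-Hochberg over all 16475 entries. A gene was called where its adjusted p was under 0.05. An intensity of 20 was taken as the level below which the size of a difference is uncertain. Levels of different genes are not compared, since each gene has its own probes.

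The tissue carried the markers of its label: Acta1, the actin of skeletal muscle, read 14.82 ± 0.04 in HF day 56, 14.81 ± 0.05 in LF day 56 and 14.81 ± 0.02 in LF day 0 (log2, SD, n = 10 each). The arrays also formed sets that cut across the groups. In 9 of them, 3 per group, the control RNAs added before labelling gave a 5′ minus 3′ log2 signal of -1.27 to -1.02, and in the other 21 it was -2.16 to -1.49. The 9 arrays are called the smaller set and the 21 the larger set, and values within each are given where they bear on an enzyme. The neutrophil gene S100a8 exceeded an intensity of 100 on 6 arrays of HF day 56, 4 of LF day 56 and 7 of LF day 0. The mean log2 level of 8 slow fibre markers ran from 4.44 to 8.85 in HF day 56, from 4.59 to 9.36 in LF day 56 and from 4.87 to 8.91 in LF day 0.

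Dgat2, an acyltransferase of the last step, was the only measured enzyme called in any comparison: it rose 1.56-fold in HF day 56 over LF day 0. Between HF day 56 and LF day 56, 0 of the 6 enzymes were called in limma, where 0.0243% of all entries were called. At an unadjusted p under 0.05 there was 1 (Dgat2), against 5.10% of all entries. Between LF day 56 and LF day 0 the count was 0 in limma, where 0.850% of all entries were called, and 1 unadjusted (Dgat1), against 10.1%. Between HF day 56 and LF day 0 it was 1 (Dgat2), against 1.59%, and 2 unadjusted (Dgat2 and Dgat1), against 11.0%. The comparisons share groups and are not independent. The median difference of the 6 was 0.07 for HF day 56 over LF day 56, 0.09 for LF day 56 over LF day 0 and 0.19 for HF day 56 over LF day 0, beside medians of 0.0029, 0.0009 and 0.0024 over all entries.

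**Figure D1:**
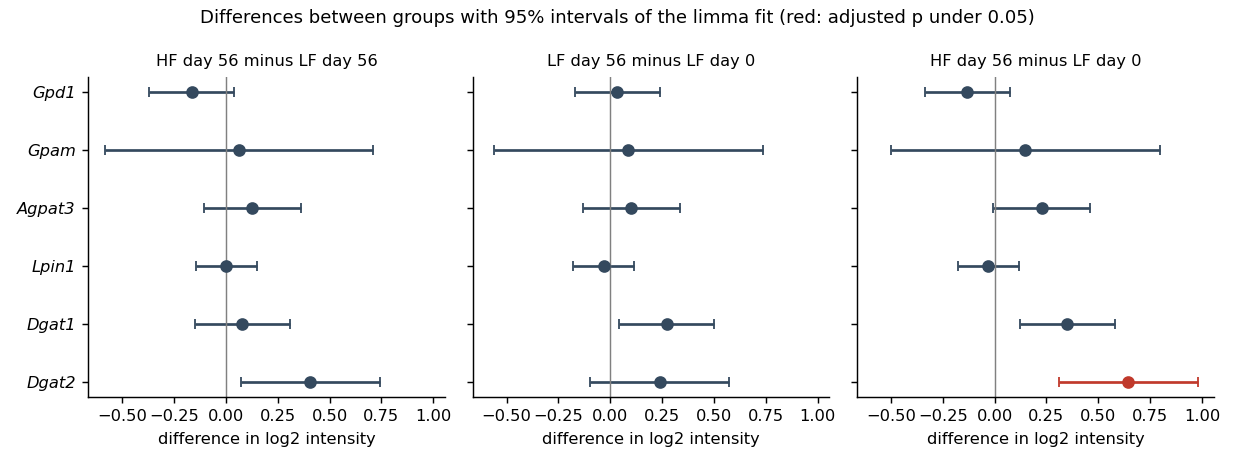
Differences in log2 intensity of the 6 measured enzymes in each comparison, with the 95% interval of the limma fit; red marks an adjusted p under 0.05. Dgat2 in HF day 56 over LF day 0 was called, at 0.65, and the intervals of Gpam were the widest of the 6.

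Gpd1, which makes glycerol-3-phosphate in the cytosol, had a lowest, median and highest intensity of 1795, 1973 and 2687 in HF day 56, of 1868, 2297 and 3049 in LF day 56, and of 1867, 2216 and 2993 in LF day 0. The groups overlapped, and no HF day 56 array exceeded the highest array of the other groups. Gpd1 differed by -0.17 ± 0.10 in HF day 56 over LF day 56 (adjusted p = 0.998), with 7 of 10 HF arrays below the LF day 56 mean. It differed by 0.03 ± 0.10 in LF day 56 over LF day 0 (adjusted p = 0.952) and by -0.13 ± 0.10 in HF day 56 over LF day 0 (adjusted p = 0.709).

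Gpd1 separated the array sets in every group. In the smaller set the HF day 56 arrays read 2482, 2523 and 2687, the LF day 56 arrays 2948, 2990 and 3049, and the LF day 0 arrays 2772, 2891 and 2993, so there the HF arrays lay below all LF arrays. In the larger set they ran from 1795 to 2394 in HF day 56 and from 1868 to 2500 in LF day 56. In LF day 0 they ran from 1867 to 2310, and the groups overlapped (n = 7 each). The separation in the smaller set rests on few arrays, and the share of all entries that separate likewise was not counted. A test of whether the diet difference of Gpd1 changed with the set gave an unadjusted p = 0.468. The difference of HF day 56 over LF day 56 was -0.23 within the smaller set and -0.14 within the larger. With the set as a block it was -0.17 ± 0.05, with a 95% interval of -0.27 to -0.06 and an unadjusted p = 0.00332, and it was not called in limma (adjusted p = 0.437). In that fit 1038 of the 16475 entries passed at an unadjusted p under 0.05 between the diets. Dgat2 was also among them (unadjusted p = 0.0193 in limma).

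Gpam, the mitochondrial acyltransferase of the first step, had a lowest, median and highest intensity of 238, 319 and 829 in HF day 56, of 149, 411 and 717 in LF day 56, and of 172, 314 and 725 in LF day 0. The groups overlapped over nearly their whole range, and the spread within a group was wide, with an SD of 0.74, 0.77 and 0.77 on the log2 scale. Its differences were 0.06 ± 0.32 for HF day 56 over LF day 56 (adjusted p = 0.998), 0.09 ± 0.32 for LF day 56 over LF day 0 (adjusted p = 0.963) and 0.15 ± 0.32 for HF day 56 over LF day 0 (adjusted p = 0.941). The 95% interval of the difference between diets ran from -0.59 to 0.71, and from -0.33 to 0.45 with the array set as a block.

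Agpat3, an acyltransferase of the second step that also remodels phospholipids, had a lowest, median and highest intensity of 120.0, 166 and 240.1 in HF day 56, of 116.5, 151 and 207 in LF day 56, and of 112, 140.1 and 185 in LF day 0. The groups overlapped, with 4 HF day 56 arrays above the highest LF day 0 array. Agpat3 differed by 0.13 ± 0.11 in HF day 56 over LF day 56 (adjusted p = 0.998), by 0.10 ± 0.11 in LF day 56 over LF day 0 (adjusted p = 0.845) and by 0.23 ± 0.11 in HF day 56 over LF day 0 (adjusted p = 0.4662). With the array set as a block the last was 0.23 ± 0.07 (adjusted p = 0.0955).

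Lpin1 is the main lipin of muscle and also acts as a partner of nuclear receptors. It had a lowest, median and highest intensity of 2996, 3409 and 3881 in HF day 56, of 2893, 3223 and 4310 in LF day 56, and of 2884, 3552 and 4089 in LF day 0. The ranges overlapped over most of their width, and the group means were 11.72 ± 0.12, 11.72 ± 0.18 and 11.75 ± 0.17 (log2, SD). The difference of HF day 56 over LF day 56 was 0.0011 ± 0.07, with a 95% interval of -0.15 to 0.15 (adjusted p = 0.999). It was -0.03 ± 0.07 for LF day 56 over LF day 0 (adjusted p = 0.934) and also -0.03 ± 0.07 for HF day 56 over LF day 0 (adjusted p = 0.950).

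**Figure D2:**
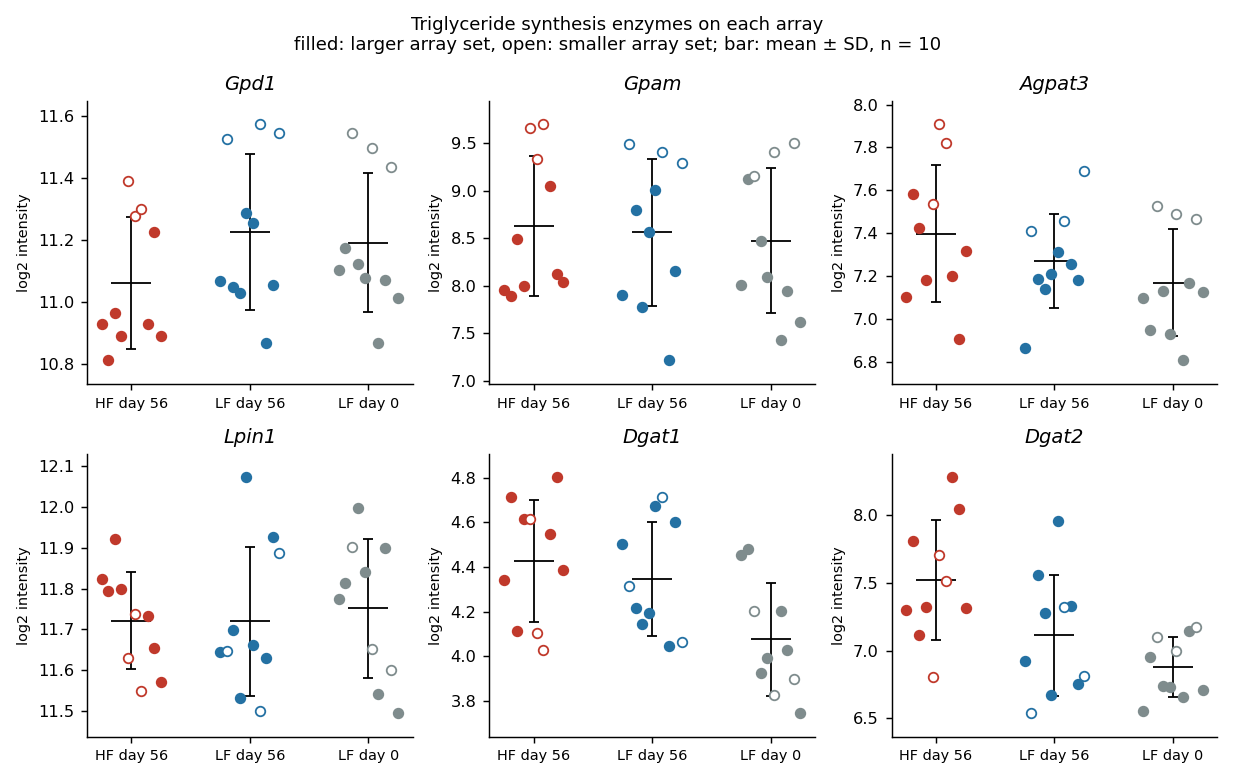
Log2 intensity of the 6 measured enzymes on each of the 30 arrays, by group; filled points are the larger array set, open points the smaller one, and bars are the mean ± SD (n = 10). Every open array of Gpd1 lies above the filled arrays of its group, and 8 of 10 HF day 56 arrays of Dgat2 lie above all LF day 0 arrays.

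Dgat1 and Dgat2 catalyse the last step but are not related in sequence. Dgat1 also re-esterifies fatty acids taken up or released within the cell, and Dgat2 is tied to fatty acids that the cell has newly made. The signal of Dgat1 was near background, with a lowest, median and highest intensity of 16.3, 22.2 and 27.9 in HF day 56, of 16.5, 19.3 and 26.2 in LF day 56, and of 13.4, 16.1 and 22.3 in LF day 0. It exceeded an intensity of 20 on 7 arrays of HF day 56, 4 of LF day 56 and 2 of LF day 0, so the sizes of its differences are uncertain. All 10 HF day 56 arrays and all 10 LF day 56 arrays lay above the LF day 0 median. Dgat1 differed by 0.35 ± 0.11 in HF day 56 over LF day 0 (adjusted p = 0.130) and by 0.27 ± 0.11 in LF day 56 over LF day 0 (adjusted p = 0.373). Between the diets at day 56 it differed by 0.08 ± 0.11 (adjusted p = 0.998), at 0.16 within the larger set and -0.11 within the smaller.

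Dgat2 had a lowest, median and highest intensity of 112, 171.5 and 311 in HF day 56, of 92.8, 138.5 and 248 in LF day 56, and of 94.0, 115 and 145 in LF day 0. Of the 10 HF day 56 arrays, 8 lay above the highest LF day 0 array and 2 above the highest LF day 56 array, so the groups overlapped in part. Of the 10 LF day 56 arrays, 5 lay above the highest LF day 0 array and 1 below the lowest. Dgat2 rose in HF day 56 over LF day 0 by 0.65 ± 0.16 (log2, SE; limma, adjusted p = 0.0319), with 9 of 10 HF arrays above the LF day 0 mean. The difference was 0.41 ± 0.16 for HF day 56 over LF day 56 (adjusted p = 0.875), with 9 of 10 HF arrays above the LF day 56 mean and a 95% interval of 0.07 to 0.74. It was 0.24 ± 0.16 for LF day 56 over LF day 0 (adjusted p = 0.667). The means of Dgat2, Dgat1, Agpat3 and Gpam fell in the order HF day 56, LF day 56 and LF day 0, and neighbours in that order did not pass the test. The median intensities of Gpam (319, 411 and 314) did not follow that order. Within the smaller array set the means of Dgat2 and Dgat1 did not follow it either.

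The call of Dgat2 over LF day 0 was close to the threshold. It was lost without replicates 2, 6, 8 or 9 of HF day 56 or replicates 1, 4, 5, 7 or 10 of LF day 0, each left out alone, with differences of 0.56 to 0.63 and adjusted p of 0.0521 to 0.0683 in limma. Within the larger set the difference was 0.81 (adjusted p = 0.0415), and within the smaller set 0.25 (adjusted p = 0.845). The means in the smaller set were 7.34 ± 0.48 in HF day 56, 6.89 ± 0.40 in LF day 56 and 7.09 ± 0.09 in LF day 0 (log2, SD, n = 3 each), so LF day 56 was the lowest group there.

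Part of the adipocyte marker list was, like Dgat2, higher in HF day 56 than in LF day 0. The marker lists were chosen with earlier results of these data known. Of 14 listed, 11 were measured, and 5 of these were called higher in HF day 56 than in LF day 0, 0 lower, where 1.59% of all entries were called. Adipoq, the hormone adiponectin, rose by 1.11 ± 0.20 (adjusted p = 0.00159), and Cidec, a lipid droplet protein of fat cells, by 1.81 ± 0.34 (adjusted p = 0.00254). Lep, Adig and Retn rose by 2.28, 1.05 and 0.82. Of the 11, 9 differences were positive and 2 negative. The negative ones were Thrsp, a lipid synthesis gene of fat and liver, at -0.40 ± 0.13 (adjusted p = 0.157; 10 of 10 HF arrays below the LF day 0 mean), and Pck1, a gluconeogenic enzyme that also serves glycerol synthesis in fat, at -0.10 ± 0.26 (adjusted p = 0.957). In HF day 56 over LF day 56 these were -0.32 and -0.48 (adjusted p = 0.926 and 0.991), and 0 of the 11 were called in limma (6 unadjusted). Of all entries 0.0243% were called there and 5.10% passed unadjusted. The adipocyte hormone Lep averaged an intensity of 27.9 in HF day 56, 9.31 in LF day 56 and 5.75 in LF day 0. Slc7a10, an amino acid transporter of fat cells, averaged under 20 in every group. The mean of the 10 markers whose intensity exceeded 20 on 5 arrays or more ran from 6.71 to 8.25 in HF day 56, from 6.79 to 7.92 in LF day 56 and from 6.49 to 7.48 in LF day 0 (log2). Car3 and Fabp4 of this list are also made by muscle or its vessels.

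With the adipocyte mean as a covariate, the difference of Dgat2 in HF day 56 over LF day 0 was 0.28 (adjusted p = 0.830), and with Adipoq alone, a covariate added after the data were seen, it was 0.27 (adjusted p = 0.850). The adipocyte mean itself averaged 7.53 in HF day 56, 7.17 in LF day 56 and 6.78 in LF day 0. A fit with it therefore also takes up part of any difference that follows that order, whatever its source. Fewer of all entries were called over LF day 0 with either covariate. The difference of Dgat2 between the diets was 0.23 with either covariate, against 0.41 without, and 0.18 on the arrays with S100a8 at or under 100 with the array set as a block, a setting also added after the data were seen (adjusted p = 0.9995 in each). That setting kept 4 arrays of HF day 56, 6 of LF day 56 and 3 of LF day 0. Fibroblast and tendon markers went the other way over LF day 0: 6 of 9 were called lower in HF day 56, where 1.59% of all entries were called. Their mean level was 8.99 to 9.65 in HF day 56 and 9.48 to 10.20 in LF day 0. In LF day 56 over LF day 0, 6 of 9 were also called lower, where 0.850% of all entries were called. Between the diets at day 56, 0 of the 9 were called, against 0.0243% of all entries, and 7 differences were positive (median 0.03). The part of these cell types in the rise of Dgat2 was not tested, and in whole muscle fewer cells of a type and less RNA per cell cannot be told apart.

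Across the array sets, with group in the fit, 3 of the 6 enzymes were called, where 23.1% of all entries were called. Gpam was higher in the smaller set by 1.26 ± 0.17 (adjusted p = 1.51e-06), at 9.44 ± 0.17 in the smaller set and 8.17 ± 0.52 in the larger set (log2, SD, n = 9 and 21). Agpat3 was higher there by 0.44 ± 0.06 (adjusted p = 3.81e-06) and Gpd1 by 0.42 ± 0.05 (adjusted p = 3.96e-08). Lpin1, Dgat1 and Dgat2 differed by -0.08, -0.12 and -0.09 and were not called (adjusted p = 0.442, 0.414 and 0.730). A test of whether the diet difference itself changed with the set gave unadjusted p-values between 0.266 and 0.853 for the 6 enzymes.

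Deviations from the group means were then correlated within each set for the 15 pairs of enzymes, with two-sided p-values from permutation within groups, adjusted over the 15. By Pearson's r 0 pairs passed in either set (1 unadjusted in the larger and 2 in the smaller), and the smallest adjusted p was 0.0960 in the larger set and 0.347 in the smaller (exact permutation). The closest pair of the larger set was Gpam and Gpd1, with r = 0.61 (permutation p = 0.0064, adjusted p = 0.0960) and rho = 0.71 (permutation p = 0.00079, adjusted p = 0.0118). Without the 2 arrays farthest from the median of Gpam, r was 0.68. On the 9 arrays of the smaller set the same pair gave r = -0.12 (exact permutation p = 0.778, adjusted p = 0.833), rho = -0.20 (exact permutation p = 0.685, adjusted p = 0.801) and r = -0.83 without the 2 farthest arrays, so the relation of the larger set was not seen there.

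The enzymes were set against the adipocyte, slow fibre and neutrophil marker means in the same way, 18 relations in each set. After adjustment 0 passed by r or by rho (permutation within groups). By r at an unadjusted p under 0.05 there were 3 in the larger set and 2 in the smaller. The 2 farthest arrays of these relations are those farthest from the median of the marker mean. Dgat2 and the adipocyte mean gave r = 0.51 in the larger set (permutation p = 0.0591, adjusted p = 0.217), rho = 0.47 (permutation p = 0.0694, adjusted p = 0.334) and r = 0.57 without the 2 farthest arrays. On the 9 arrays of the smaller set they gave r = 0.15 (exact permutation p = 0.699, adjusted p = 0.792), rho = 0.17 (exact permutation p = 0.676, adjusted p = 0.811) and r = -0.14 without the 2 farthest arrays. Larger values of r for Dgat2 on those 9 arrays were 0.74 with the slow fibre mean (exact permutation p = 0.106, adjusted p = 0.383) and 0.67 with the neutrophil mean (exact permutation p = 0.088, adjusted p = 0.383). Without the 2 farthest arrays these fell to -0.16 and 0.14. In the larger set the same 2 relations gave r = 0.26 and 0.08.

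Agpat3 and the slow fibre mean gave r = 0.48 in the larger set (permutation p = 0.0366, adjusted p = 0.217), rho = 0.42 (permutation p = 0.0726, adjusted p = 0.334) and r = 0.45 without the 2 farthest arrays. On the other 9 arrays they gave r = 0.85 (exact permutation p = 0.0324, adjusted p = 0.292), rho = 0.92 (exact permutation p = 0.0556, adjusted p = 0.500) and r = 0.48 without the 2 farthest arrays. Gpd1 and the slow fibre mean gave r = -0.50 in the larger set (permutation p = 0.0298, adjusted p = 0.217) and rho = -0.46 (permutation p = 0.0410, adjusted p = 0.334). Without the 2 arrays farthest from the median of the slow fibre mean r was -0.10, so the size of r depended on those arrays. On the other 9 arrays r was -0.51 (exact permutation p = 0.250, adjusted p = 0.567) and rho -0.48 (exact permutation p = 0.236, adjusted p = 0.558), with r = -0.42 without the 2 farthest.

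Gpd1 and the neutrophil mean had the smallest adjusted p of the score relations, on the 9 arrays of the smaller set: r = -0.94 (exact permutation p = 0.00926, adjusted p = 0.167), rho = -0.87 (exact permutation p = 0.0185, adjusted p = 0.333) and r = -0.91 without the 2 farthest arrays. The larger set gave r = -0.40 (permutation p = 0.0850, adjusted p = 0.255), rho = -0.37 (permutation p = 0.104, adjusted p = 0.334) and r = -0.48 without the 2 farthest arrays, so the sign was the same in both sets and neither passed. Lpin1 and the adipocyte mean gave r = -0.41 in the larger set (permutation p = 0.0470, adjusted p = 0.217), rho = -0.37 (permutation p = 0.0849, adjusted p = 0.334) and r = -0.28 without the 2 farthest arrays. The smaller set gave r = -0.28 (exact permutation p = 0.551, adjusted p = 0.708), rho = -0.33 (exact permutation p = 0.444, adjusted p = 0.720) and r = -0.18 without the 2 farthest arrays.

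**Figure D3:**
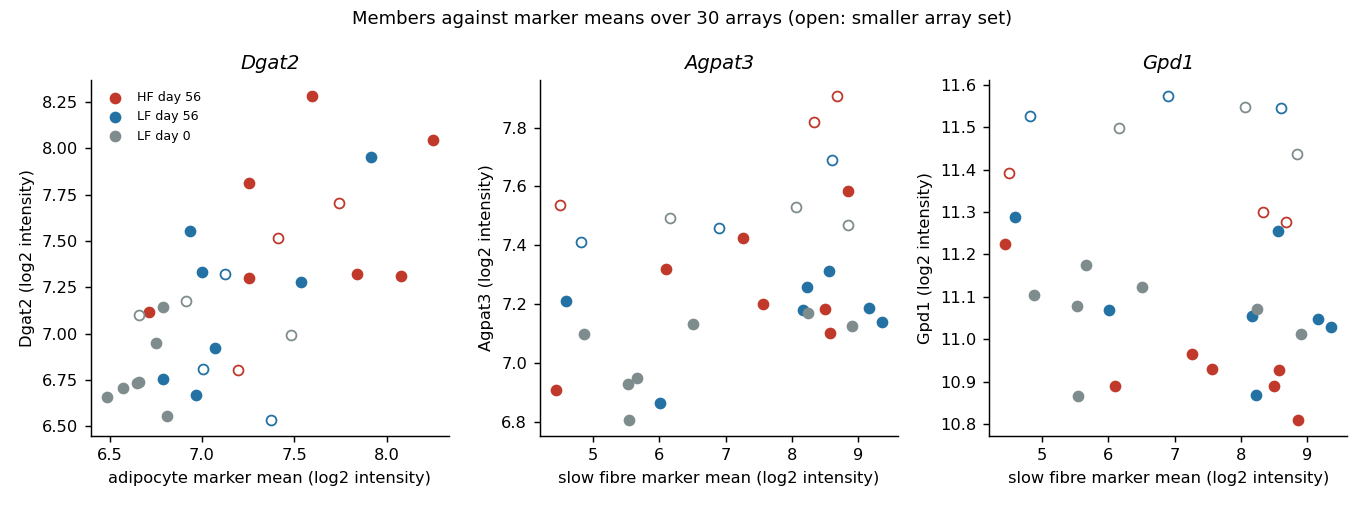
Log2 intensity of Dgat2 against the mean of 10 adipocyte markers, and of Agpat3 and Gpd1 against the mean of 8 slow fibre markers, on the 30 arrays; colours give the group and open points the smaller array set. HF day 56 arrays reach the highest Dgat2 and adipocyte values, while LF day 0 arrays reach 7.18 for Dgat2 and 7.48 for the adipocyte mean. The groups overlap on both axes, and the lowest Dgat2 value belongs to LF day 56.

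The genes around these enzymes were taken from 6 lists, chosen with earlier results of these data known. The counts for each list stand beside these shares of all entries, in either direction. Between the diets 0.0243% were called and 5.10% passed unadjusted. In LF day 56 over LF day 0 the shares were 0.850% and 10.1%, and in HF day 56 over LF day 0 they were 1.59% and 11.0%. The lists are short, and whether their counts differ from these shares was not tested. Of 16 measured enzymes of the same or neighbouring steps, 0 were called in limma between the diets (2 unadjusted) and 1 higher in each comparison with LF day 0. Unadjusted, 5 passed in LF day 56 over LF day 0 and 6 in HF day 56 over LF day 0, in either direction. The called gene was Lclat1, an acyltransferase of phospholipid remodelling. It rose by 0.22 ± 0.05 in HF day 56 over LF day 0 (adjusted p = 0.0164) and by 0.22 ± 0.05 in LF day 56 over LF day 0 (adjusted p = 0.0351), on 10 of 10 arrays each, and differed by 0.0086 between the diets (adjusted p = 0.998). The median of the list was 0.02 in all 3 comparisons. Lpin2, another lipin, and Mogat2, which acylates monoacylglycerol, had the smallest p of this list between the diets and differed by -0.18 and 0.15 (adjusted p = 0.823 and 0.966) at intensities under 20 on every array.

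Slc27a1, a fatty acid transport protein with acyl-CoA synthetase activity, was the only 1 of 7 measured synthetases called. It rose by 0.76 ± 0.12 in HF day 56 over LF day 0 (adjusted p = 0.000222), on 10 of 10 arrays, and differed by 0.39 ± 0.12 between the diets (adjusted p = 0.542). Acsbg1, the other synthetase of smallest p, differed by 0.11 between the diets (adjusted p = 0.991) at intensities under 20. Unadjusted, 1 of the 7 passed between the diets, 4 in LF day 56 over LF day 0 and 2 in HF day 56 over LF day 0. The 4 went in both directions: Slc27a1 and Acsl6 differed by 0.38 and 0.23, Acsl3 and Acsl5 by -0.44 and -0.18. The median of the synthetases was 0.09 for HF day 56 over LF day 56. It was -0.08 for LF day 56 over LF day 0 and 0.05 for HF day 56 over LF day 0.

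Of 12 measured genes of lipid droplet assembly, 2 were called higher in HF day 56 than in LF day 0: Cidec, which is also on the adipocyte list, and Plin5, a droplet coat protein of oxidative tissue. Plin5 rose by 0.66 ± 0.13 over LF day 0 (adjusted p = 0.00274), on 10 of 10 arrays, and differed by 0.56 ± 0.13 between the diets (adjusted p = 0.112). Unadjusted, 3 of the 12 passed between the diets, 4 in LF day 56 over LF day 0 and 6 in HF day 56 over LF day 0. The list median was 0.06 for HF day 56 over LF day 56 and 0.16 over LF day 0. Of 7 measured genes of triglyceride breakdown, 0 were called in limma in any comparison (1 unadjusted between the diets, 1 in LF day 56 over LF day 0 and 3 in HF day 56 over LF day 0), with medians of 0.10, 0.13 and 0.25. Mgll, which cleaves monoacylglycerol, differed by 0.31 ± 0.10 between the diets (adjusted p = 0.542), and Pnpla2, the lipase of the first step, by 0.14 ± 0.08 (adjusted p = 0.998).

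On the phospholipid branch, 0 of 19 measured genes were called in limma in any comparison (1 unadjusted between the diets and 2 in each comparison with LF day 0), with medians of -0.02, -0.0093 and -0.03. Pcyt1a and Pcyt2, which activate choline and ethanolamine for these lipids, differed by -0.39 and -0.30 between the diets (adjusted p = 0.978 and 0.843), and Pcyt2 lay under an intensity of 20 on every array.

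Of 17 measured regulators known to act on these enzymes, 1 was called. Srebf1, a transcription factor that drives lipid synthesis genes in liver and fat, fell by 0.45 ± 0.10 in HF day 56 over LF day 0 (adjusted p = 0.00692), on 9 of 10 arrays. Its mean intensity was 251 in HF day 56, 285 in LF day 56 and 343 in LF day 0. It differed by -0.18 ± 0.10 between the diets (adjusted p = 0.991) and by -0.27 ± 0.10 in LF day 56 over LF day 0 (adjusted p = 0.246). Ppargc1b, a coactivator of mitochondrial and lipid genes, differed by -0.19 ± 0.10 between the diets (adjusted p = 0.991). Unadjusted, 0 of the 17 passed between the diets, 3 in LF day 56 over LF day 0 and 4 in HF day 56 over LF day 0. The median of the regulators was -0.0026 between the diets and 0.0026 in HF day 56 over LF day 0.

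**Figure D4:**
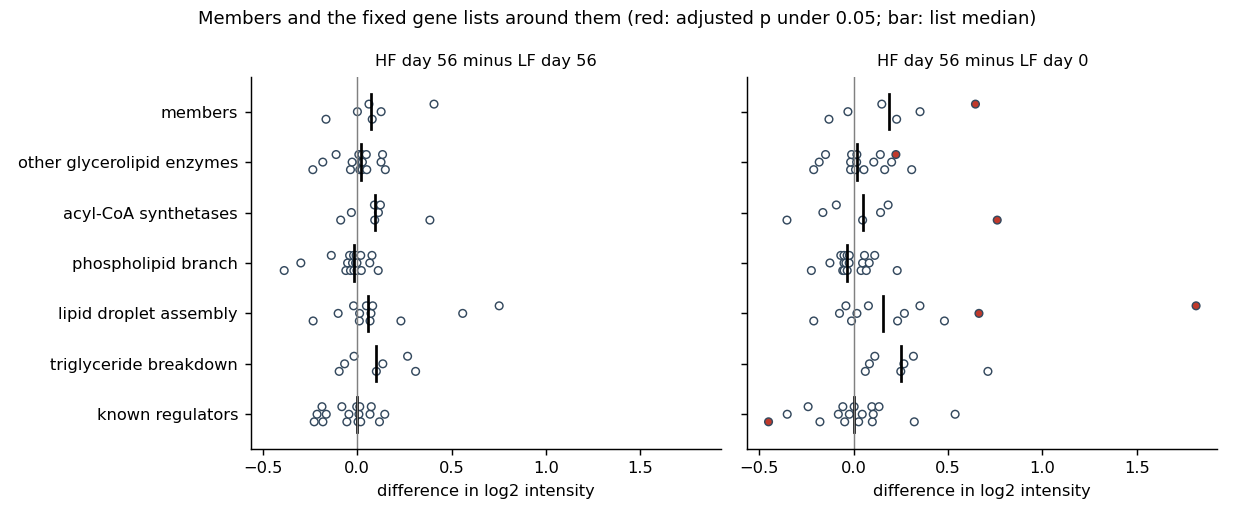
Differences in log2 intensity of the 6 measured enzymes (members) and of the genes in 6 lists around them, for HF day 56 over LF day 56 (left) and over LF day 0 (right); each point is a gene, bars are list medians and red marks an adjusted p under 0.05. On the left no point is red, and on the right Dgat2, Lclat1, Slc27a1, Plin5, Cidec and Srebf1 are.

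The genes whose levels followed each enzyme most closely were found by Pearson's r over 30 arrays, after removal of the mean of each group and array set, among 6224 named entries (6225 for Dgat1) whose intensity exceeded 20 on 15 arrays or more. These values describe the 30 arrays, which share their labelling and scaling between genes. For Gpd1 they were Ptp4a2, Slc37a4 (the glucose-6-phosphate transporter) and Msrb3, at r = 0.80, 0.79 and 0.78. For Gpam they were Il6st, Serinc1 and Hipk3, at 0.90, 0.90 and 0.89, and for Agpat3 Sim2, Pla2g12a and Phyh, at 0.72, 0.70 and 0.69. For Lpin1 they were Jak1, Wbp1l and Ank, at 0.82, 0.76 and 0.76. For Dgat1, near background, they were Ksr1, Tatdn3 and Rilp, at 0.70, 0.69 and 0.68. For Dgat2 they were Taz (tafazzin, of cardiolipin remodelling), Decr1 (a reductase of unsaturated fatty acid breakdown) and Evc, at 0.69, 0.65 and 0.64.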

How the data were processed

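The deposited table held 1 intensity per gene and array on a linear scale, made by the authors with GCRMA per the submitters' processing notes, which give no version. Values ran from 1.2 to 30599 with array medians of 8.9 to 9.4. Intensities were put on the log2 scale with a pseudocount of 0, and 64 of 16539 entries, all control probe sets, were left out. Genes were named by the platform annotation, which gave 1 symbol for 15780 entries; 5 listed genes whose entry it does not name were left out. Groups came from the sample titles. Groups were compared with limma 3.58.1 in R 4.3.3 (27 residual and 3.97 prior degrees of freedom), tested first on simulated data. Array sets were parted at the widest gap in the mean 5′ minus 3′ log2 signal of 4 pairs of dap and thr control probe sets. Correlations used Python 3.11.15 and numpy 2.4.6 with 100000 permutations within groups in the larger set and all 216 in the smaller. The design named 21 pairs and 7 genes; with 6 measured, 15 pairs remained. Named genes were the 6 enzymes, called members of each list, the 2 of smallest p between diets per list, and the 3 most alike genes per enzyme. The enzymes and lists were chosen with earlier results of these data known. Mouse numbers in the labels are all different, so equal replicate numbers do not pair arrays: 9 of 30 same-numbered pairs correlated above 0.1 (range -0.535 to 0.57). The number of mice limits the precision. Alternatives were other priors, normalizations, filters, a pseudocount of 16, blocks, covariates and left-out arrays.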

Additional observations from a re-analysis of the deposited data

How the results depend on the processing

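Of 306 combinations of 18 enzyme differences with 17 alternative settings (3 of them, the set with the adipocyte score, Adipoq and low S100a8, chosen after seeing the data), 283 kept direction and call, 5 lost the call and 18 changed sign. All 5 losses were Dgat2 in HF day 56 over LF day 0: 0.25 in the smaller set alone, 0.28 with the adipocyte score, 0.26 with set and adipocyte score, 0.27 with Adipoq as covariate, and 0.61 (adjusted p = 0.642) on the arrays with S100a8 at or under 100 with the set as a block. The low S100a8 setting kept 4 arrays of HF day 56 and 3 of LF day 0, and the smaller set held 3 of each, so these 2 fits rest on few arrays. In these 5 settings 0 enzymes were called. Leaving out 1 array gave 0 to 1 called enzymes and Dgat2 between 0.56 and 0.72. The sign changes were of uncalled values. Between diets, Dgat1 was -0.11 in the smaller set and -0.0102 with Adipoq, Gpam -0.036 with the adipocyte score and -0.10 on the low S100a8 arrays, and Lpin1 -0.0035 with median centring, -0.039 in the smaller set and -0.068 on the low S100a8 arrays. In LF day 56 over LF day 0, Dgat2 was -0.20 in the smaller set; with the adipocyte score Gpam was -0.021, Lpin1 0.030 and Gpd1 -0.022, with set and adipocyte score Lpin1 0.027 and Gpd1 -0.0016, and with Adipoq Lpin1 0.041. In HF day 56 over LF day 0, Gpam was -0.057 with the adipocyte score, and Lpin1 0.087 with it, 0.081 with set and adipocyte score and 0.11 with Adipoq. Left-out arrays gave -0.087 to 0.17 for Gpam and -0.024 to 0.040 for Lpin1 between diets, and -0.030 to 0.24 for Gpam and -0.0042 to 0.074 for Gpd1 in LF day 56 over LF day 0. In the smaller set Dgat2 and the adipocyte score gave r = -0.14 without the 2 farthest arrays. In the larger set 1 pair, Gpam and Gpd1, passed by rho, and 1 without the 2 farthest arrays. The causes were not tested.

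The counts over all entries moved as follows. Between diets (4) they were 0 in limma with only both groups fitted, in either set alone and on the low S100a8 arrays (unadjusted p under 0.05: 799, 835, 782 and 713), 7 with a trended prior or a pseudocount of 16, 8 with the filter on low entries, 12 with the slow fibre score, and 2 with Adipoq or with set and adipocyte score. Single arrays moved that count between 2 and 15: it was 15, 10, 8 and 11 without HF day 56 replicates 3, 5, 7 and 9, and 2 without HF day 56 replicates 2, 4, 6 and 8 or any LF day 56 replicate other than 4 and 8. In LF day 56 over LF day 0 (140) they were 214 with the set as a block, 47 and 11 in the larger and the smaller set, 83 with the neutrophil score and 7 on the low S100a8 arrays. In HF day 56 over LF day 0 (262) they were 134 and 0 in the larger and the smaller set (1323 unadjusted), 62 with the adipocyte score, 103 with set and adipocyte score, 56 with Adipoq and 7 on the low S100a8 arrays. The replicate number as a block gave 1 gene between diets and changed no call of the enzymes; 5 of 30 arrays correlated best with their own number. Low signal limits Dgat1, whose values lie near an intensity of 20.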
